A study of Mus musculus with 8 samples.

Results

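The interferon response and antigen presentation genes described here are a list of 41 mouse genes, measured in the striatum of R6/2 mice, a model of Huntington's disease, and of wild-type mice. They were listed by gene symbol. Each gene was read from its brightest probe set among those that the platform annotation assigns to that gene alone. This gave 39 of the 41 listed genes, out of 18193 genes measured in all. Isg15, which encodes a ubiquitin-like protein, and Ifi44 had no such probe set and have no value here.

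Interferons are signals that cells release on sensing foreign nucleic acid. Type I interferons act through the receptor formed by Ifnar1 and Ifnar2 and a factor complex that includes Stat2 and Irf9 and binds the interferon-stimulated response element (ISRE) in the promoters of antiviral genes. Interferon gamma acts at the gamma-activated sequence (GAS). Both raise the machinery that loads peptides onto class I major histocompatibility molecules, in which a heavy chain from the H2 region pairs with beta-2 microglobulin.

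The promoters of these genes are shown first, because the ISRE is the element through which the response is known to act. RefSeq promoter windows of GRCm38.p6, from 250 bases before to 50 bases after the gene start, were at hand for 32 of the 41 listed genes. The ISRE letters searched for were GAAA, any 2 bases and GAAA again, or on the other strand TTTC, any 2 bases and TTTC. They stood in 15 of these 32 genes (46.9%), against 1079 of 27025 genes in the whole promoter table (3.99%) and 27 of 85 other genes of the pathway (31.8%). The letters TTCNNNGAA of the GAS, which are their own reverse complement, stood in 8 of the 32 (25.0%), against 2582 of all genes (9.55%) and 17 of the 85 other pathway genes (20%). A match is a run of letters, not a shown binding site. The last 160 bases before the start are given here for the 4 genes that were called higher in R6/2 mice and hold ISRE letters in that stretch. Capitals mark the ISRE letters.

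Ifit1: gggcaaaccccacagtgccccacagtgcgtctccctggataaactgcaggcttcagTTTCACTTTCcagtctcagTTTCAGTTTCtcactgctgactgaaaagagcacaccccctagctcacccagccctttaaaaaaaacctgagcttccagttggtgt
Ifit3: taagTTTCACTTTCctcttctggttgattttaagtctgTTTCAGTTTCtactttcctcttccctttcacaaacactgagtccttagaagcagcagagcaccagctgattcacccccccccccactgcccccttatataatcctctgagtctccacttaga
Gbp3: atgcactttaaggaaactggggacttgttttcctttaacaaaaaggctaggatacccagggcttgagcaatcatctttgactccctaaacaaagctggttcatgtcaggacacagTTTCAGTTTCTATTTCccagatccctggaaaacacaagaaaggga
Irgm1: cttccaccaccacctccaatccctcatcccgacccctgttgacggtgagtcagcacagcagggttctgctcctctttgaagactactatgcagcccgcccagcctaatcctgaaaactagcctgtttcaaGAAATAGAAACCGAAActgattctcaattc

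These stretches lie at chr19:34640729-34640888 (plus strand) for Ifit1, chr19:34583369-34583528 (plus strand) for Ifit3, chr3:142559884-142560043 (plus strand) for Gbp3 and chr11:48871421-48871580 (minus strand) for Irgm1. Each is written in the direction of transcription and ends at the base before the annotated start. Ifit1 and Ifit3 each carry a pair of separate ISRE matches, at -104 to -95 and -85 to -76 in Ifit1 and at -156 to -147 and -122 to -113 in Ifit3. In Gbp3 (-45 to -36 and -39 to -30) and Irgm1 (-30 to -21 and -24 to -15) the matches overlap, so the capitals run together. Of the other genes called higher, Ifih1 (33 to 42) and Ifitm3 (3 to 12 and 20 to 29) held the letters after the start, in transcribed sequence. Among the genes called higher, 6 of the 9 with a promoter window held ISRE letters, as did 8 of the 21 measured genes that did not pass the test. The search used no expression value. The plot of match positions shows all matches of both elements in the listed genes.

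**Figure D1:**
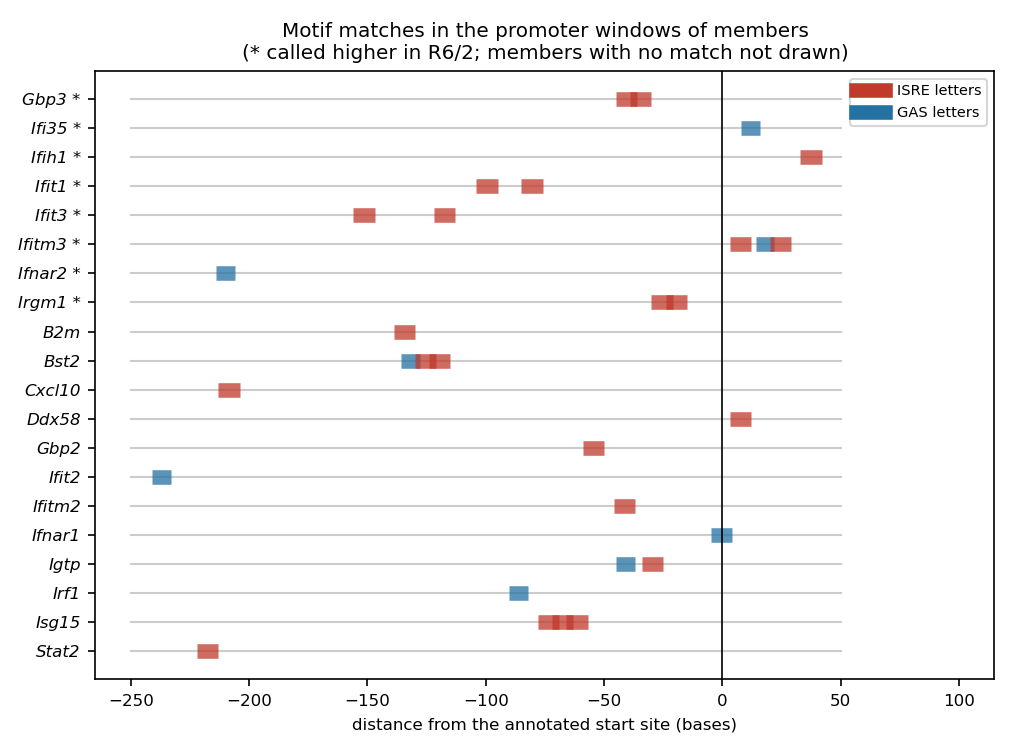
Positions of ISRE and GAS letter matches in the promoter windows of the listed genes, with the distance from the gene start in bases on the horizontal axis and genes on the vertical axis; coloured bars mark the matches of each element, a star a gene called higher, and genes with no match are not drawn. Ifit1, Ifit3, Gbp3 and Irgm1 each have 2 ISRE matches before the start, while those of Ifitm3 and Ifih1 lie after it.

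Total RNA was taken from the striatum of 4 R6/2 mice, numbered 64, 65, 70 and 78, and 4 wild-type mice, numbered 42, 48, 54 and 63, with 1 array for each mouse. All were labelled female, 12 weeks (85 days) old and of mixed C57Bl/6 and CBA strain. R6/2 mice carry the start of the human huntingtin gene with an expanded CAG repeat beside their own mouse genes, so the transgene models a fragment of huntingtin and not the whole protein. The design mentions 5 wild-type mice, of which 1 was not analysed here.

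Values are log2 intensities and are comparable between mice for 1 probe set, not between probe sets. Array medians lay between 5.08 and 5.13. As a gauge of absent signal in these females, 11 of 13 probe sets of Y-linked genes lay at or below 3.71. Mx1 was the 1 listed gene whose mean in both groups was that low. The highest Y-linked probe set on each array read between 4.90 and 5.37, so a mean above 3.71 does not show that a gene was expressed. A further 16 listed genes had a wild-type mean below the typical array median of 5.11 and are dim, where differences are compressed. Of 8 measured markers of medium spiny neurons, the main striatal cell type, 7 fell in R6/2 mice, against 6.19% of all genes. The mean level of the 8 was 10.96 to 11.29 in wild-type mice and 10.24 to 10.31 in R6/2 mice. All 8 were well above the gauge of absent signal. In bulk tissue, fewer cells of a type and less RNA per cell cannot be told apart. Wild-type mouse 42 stood apart in control signals that gauge RNA integrity, with a 3′ minus 5′ difference for Gapdh of 1.19 against 0.23 to 0.52 on the other arrays. Wild-type mouse 42 and R6/2 mouse 70 also stood apart from all others in the class I heavy chain genes, as described with those genes.

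Interferon response genes were higher in R6/2 striatum or did not pass the test, and none fell. Of the 39 genes, 11 rose (28.2%), at an adjusted p under 0.05 in limma with Benjamini-Hochberg adjustment over all genes. Over all 18193 genes, 9.09% were called higher and 6.19% lower (15.3% in all). Of 93 other measured genes of the pathway, 9.68% were called higher. Both lists were chosen with earlier results of these data known, so the shares given here do not test them as sets. The median difference of the 39 genes was 0.42 on the log2 scale, against -0.0034 over all genes, and 34 of the 39 differences were positive (87.2%, against 49.3% of all genes). The 11 that rose were the receptor chain Ifnar2, the sensor Ifih1, the antiviral effectors Ifit1, Ifit3, Ifitm3, Rtp4, Ifi35 and Xaf1, and the GTPases Gbp3, Irgm1 and Iigp1. At an unadjusted p under 0.05 limma gave 23 of the 39 higher and 0 lower, against 17.3% of all genes higher and 12.3% lower. In 13 genes all 4 R6/2 mice lay above all 4 wild-type mice (33.3%), a pattern that 11.7% of all genes showed. The map of all 39 genes by mouse shows these values side by side.

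**Figure D2:**
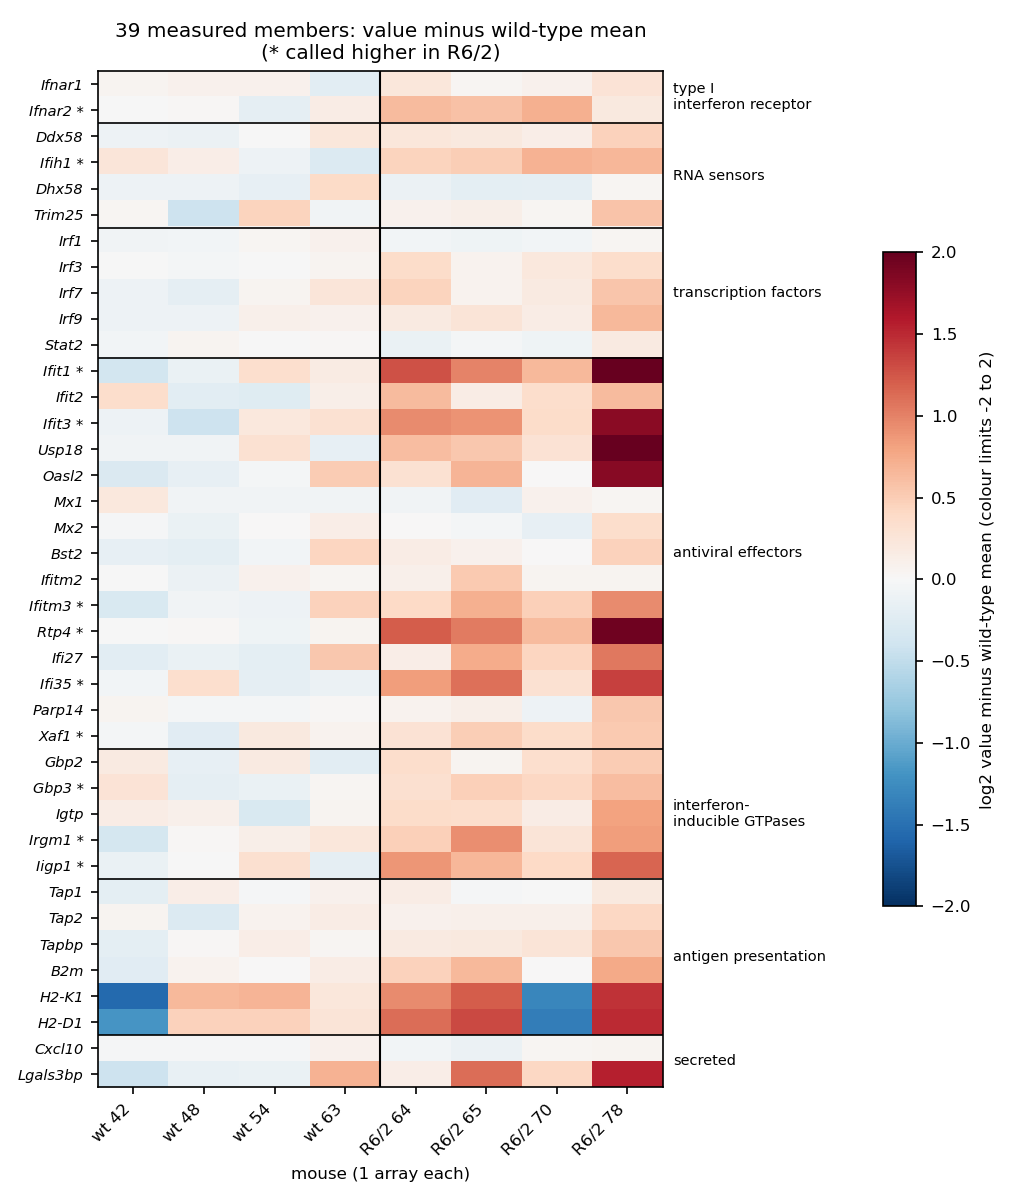
Log2 intensity minus the wild-type mean for each of the 39 genes (vertical axis, ordered by role) in each of the 8 mice (horizontal axis); the colour scale gives the difference in log2 units. R6/2 mouse 78 is mostly the highest, and mice 42 and 70 are low for H2-K1 and H2-D1.

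The receptor for type I interferons has the chains Ifnar1 and Ifnar2, and 1 of the 2 rose. Ifnar2, the chain that binds interferon tightly, read 6.77, 6.79, 6.59 and 6.92 in wild-type mice 42, 48, 54 and 63, and 7.40, 7.36, 7.49 and 6.96 in R6/2 mice 64, 65, 70 and 78. The groups did not overlap, although R6/2 mouse 78 lay just above the highest wild-type mouse. The means were 6.77 ± 0.13 and 7.30 ± 0.24 (SD, n = 4 each), a log2 difference of 0.53 ± 0.12 (SE) with a limma adjusted p of 0.0140. Without mice 42 and 70 together Ifnar2 did not pass (0.0770). Another pair of Ifnar2 probe sets differed by 0.13 (adjusted p over all probe sets 0.387) and 0.15 (0.591), so the rise rests on 1 of 3. Ifnar1 differed by 0.15 ± 0.092 (SE) and did not pass (limma adjusted p = 0.299).

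Among 4 genes of RNA sensing, Ifih1 rose and Ddx58, Dhx58 and Trim25 did not pass. Ifih1 encodes a cytosolic helicase that detects long double-stranded RNA. It read 4.65, 4.54, 4.30 and 4.12 in the wild-type mice and 4.85, 4.89, 5.10 and 5.07 in the R6/2 mice, in the same order of numbers that is used throughout. Every R6/2 mouse lay above every wild-type mouse. The log2 difference was 0.58 ± 0.12 (SE), a fold of 1.49 on a dim probe set (limma adjusted p = 0.00947). Ddx58, which encodes the RIG-I helicase, differed by 0.26 ± 0.10 (limma adjusted p = 0.118). Trim25, a ubiquitin ligase that acts on RIG-I, differed by 0.20 ± 0.17 (0.488), and Dhx58, a related helicase, by -0.11 ± 0.12 (0.590).

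None of 5 transcription factor genes passed. Irf3, which is activated by the sensors, was the brightest and read 7.43, 7.41, 7.44 and 7.50 in the wild-type mice against 7.81, 7.51, 7.66 and 7.79 in the R6/2 mice. No values overlapped, but R6/2 mouse 65 lay next to wild-type mouse 63. The log2 difference was 0.25 ± 0.081 (SE; limma adjusted p = 0.0649), on a probe set whose identifier marks possible shared sequence. On the other Irf3 probe sets the groups overlapped. Those differed by 0.17, 0.056 and 0.041 (limma adjusted p over all probe sets 0.205, 0.635 and 0.874). Irf9, the DNA-binding partner of Stat2, also showed no overlap (0.31 ± 0.11, limma adjusted p = 0.101), and differed by 0.19 without mouse 78. Irf7, which amplifies type I interferon production, differed by 0.32 ± 0.13 (0.119). Stat2 (-0.015 ± 0.081, 0.928) and Irf1 (-0.040 ± 0.071, 0.759) had differences near 0.

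The 15 antiviral effector genes held 6 that rose, and their median difference was 0.59 on the log2 scale. Ifit1, whose product binds the capped ends of viral RNA, read 3.95, 4.18, 4.64 and 4.47 in the wild-type mice and 5.58, 5.30, 4.97 and 6.52 in the R6/2 mice. The groups did not overlap, and mouse 78 was nearly 1 log2 unit above the next R6/2 mouse. Its mean went from 4.31 ± 0.30 to 5.59 ± 0.67 (SD, n = 4 each), a log2 difference of 1.28 ± 0.28 (SE) and a fold of 2.43, the largest of the 39 (limma adjusted p = 0.0132). Ifit3, a partner of Ifit1, read 6.32, 6.00, 6.64 and 6.73 against 7.36, 7.32, 6.79 and 8.23. The order of the R6/2 mice was the same as for Ifit1, with mouse 70 lowest and mouse 78 highest. Its difference was 1.00 ± 0.26 (SE), a fold of 2.00 (limma adjusted p = 0.0286). Without wild-type mouse 42 or 48, or without R6/2 mouse 64 or 65, Ifit3 no longer passed (limma adjusted p from 0.0571 to 0.0839).

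Rtp4, an interferon-induced gene of the receptor transporter family, had the smallest adjusted p of the 39 genes. It read 5.05, 5.09, 4.98 and 5.12 in the wild-type mice, a narrow band, and 6.27, 6.09, 5.68 and 7.003 in the R6/2 mice. Every R6/2 mouse lay above every wild-type mouse, again with mouse 70 lowest and mouse 78 highest. The difference was 1.20 ± 0.22 (SE), a fold of 2.30 (limma adjusted p = 0.00516). A second, unused Rtp4 probe set was at the level of absent signal, with means of 3.60 and 3.37. It differed by -0.23 (limma adjusted p over all probe sets 0.250).

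Ifi35, an interferon-induced leucine zipper protein, read 5.25, 5.64, 5.12 and 5.18 in the wild-type mice and 6.13, 6.40, 5.60 and 6.67 in the R6/2 mice. The groups overlapped, since wild-type mouse 48 lay above R6/2 mouse 70. The difference was 0.90 ± 0.20 (SE), a fold of 1.87 (limma adjusted p = 0.0145). Its probe set is one whose identifier marks possible shared sequence. The remaining probe sets of Ifi35 differed by 0.19 (0.210) and 0.14 (0.447), and with such probe sets left out Ifi35 did not pass (limma adjusted p = 0.172).

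Ifitm3, a membrane protein that blocks virus entry, read 7.57, 7.80, 7.77 and 8.33 in the wild-type mice and 8.26, 8.58, 8.35 and 8.82 in the R6/2 mice. Wild-type mouse 63 lay above R6/2 mouse 64. The difference was 0.63 ± 0.17 (SE), a fold of 1.55 (limma adjusted p = 0.0282), and the call was lost when any of wild-type mice 42, 48 or 54 or R6/2 mice 65 or 78 was left out (0.0638 to 0.0748). Xaf1, a promoter of cell death, read 6.39, 6.21, 6.63 and 6.50 against 6.72, 6.92, 6.80 and 6.96. All R6/2 mice lay above the wild-type mice and close together. Its difference was 0.42 ± 0.10 (SE, limma adjusted p = 0.0190), with the call lost without wild-type mouse 48 (0.0525) or R6/2 mouse 78 (0.0553). Another Xaf1 probe set, at the level of absent signal with means of 3.62 and 3.65, differed by 0.022 (0.910).

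The 9 antiviral effectors that did not pass included genes with differences as large as some that did. Usp18, which removes the Isg15 protein from its targets and dampens receptor signalling, read 3.91, 3.91, 4.28 and 3.82 in the wild-type mice and 4.60, 4.51, 4.26 and 6.01 in the R6/2 mice. Mouse 78 lay far above the rest, and mouse 70 lay below wild-type mouse 54. The difference of 0.87 ± 0.31 did not pass (limma adjusted p = 0.0887), and without mouse 78 it was smaller, 0.48 ± 0.13, and passed (0.0429). Oasl2, an oligoadenylate synthetase, differed by 0.71 ± 0.33 (0.187) and was likewise highest in mouse 78, at 5.78, without which it differed by 0.33 (0.337). Ifi27 differed by 0.59 ± 0.21 (0.0884) and Ifit2, a relative of Ifit1, by 0.44 ± 0.15 (0.0750). Differences were smaller for Ifitm2, a relative of Ifitm3 (0.19 ± 0.11, 0.284), Bst2, which tethers budding virus (0.17 ± 0.15, 0.475), and Parp14, an ADP-ribosyltransferase (0.15 ± 0.12, 0.438). The dynamin-like antiviral GTPases Mx1 (-0.040 ± 0.095, 0.823) and Mx2 (0.043 ± 0.11, 0.834) differed least, and Mx1 was at the level of absent signal.

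The plot of the 11 genes that rose shows the spread between mice behind each of these differences.

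**Figure D3:**
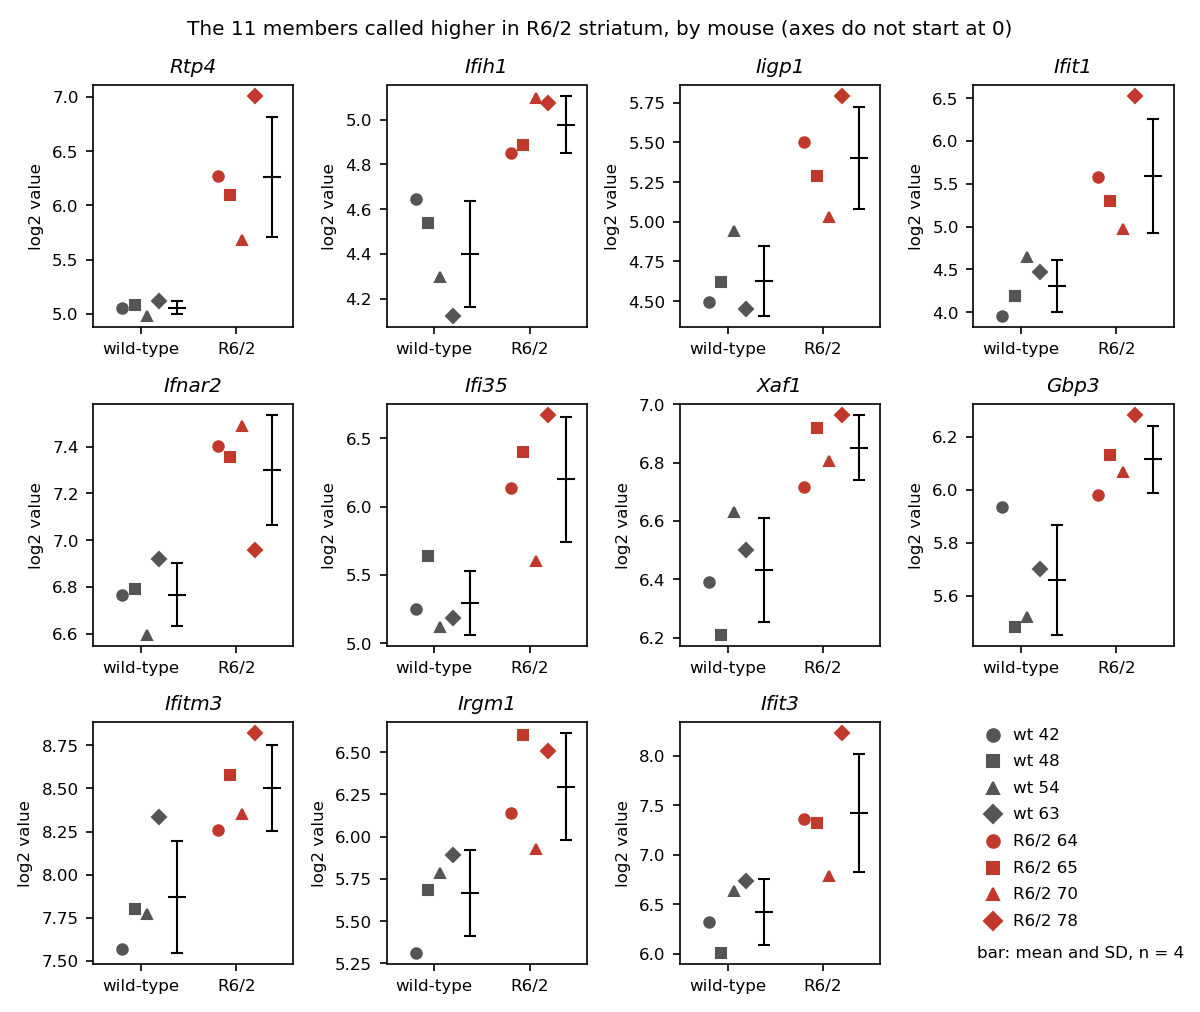
Log2 intensity of each of the 11 genes that rose, in the 4 wild-type and 4 R6/2 mice; points are mice and the bars give the mean and SD. The groups overlap in Ifi35 and Ifitm3 and are separate in the other 9 genes.

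Interferon-inducible GTPases attack the membranes around intracellular pathogens. Of 5, Gbp3, Irgm1 and Iigp1 rose and Gbp2 and Igtp did not pass, with a median difference of 0.46. Iigp1 read 4.49, 4.62, 4.94 and 4.45 in the wild-type mice and 5.50, 5.29, 5.03 and 5.79 in the R6/2 mice. The groups did not overlap, and mouse 70 was the lowest R6/2 mouse. The difference was 0.78 ± 0.16 (SE), a fold of 1.71 (limma adjusted p = 0.00985), while a second probe set differed by 0.022 (adjusted p over all probe sets 0.945). Taken as the mean of all probe sets of the gene, neither Iigp1 (0.0780) nor Ifnar2 (0.0636) passed.

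Irgm1, a regulator of the other immunity-related GTPases, read 5.31, 5.68, 5.78 and 5.89 in the wild-type mice and 6.14, 6.60, 5.93 and 6.51 in the R6/2 mice. The groups did not overlap, although R6/2 mouse 70 lay just above wild-type mouse 63. The difference was 0.63 ± 0.16 (SE), a fold of 1.54 (limma adjusted p = 0.0282). It did not pass once wild-type mouse 42 or 48, or mouse 65 or 78 of the R6/2 group, was left out (0.0589 to 0.0758).

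Gbp3, a guanylate-binding protein, read 5.94, 5.48, 5.52 and 5.70 against 5.98, 6.13, 6.07 and 6.28. No overlap was seen, by a narrow margin between wild-type mouse 42 and R6/2 mouse 64. Its difference was 0.46 ± 0.11 (SE; limma adjusted p = 0.0199), and it did not pass in the fits that left out wild-type mouse 48 (0.0624), wild-type mouse 54 (0.0520) or R6/2 mouse 78 (0.0567). Igtp, an immunity-related GTPase, showed no overlap and differed by 0.42 ± 0.14 (0.0757). Gbp2, a relative of Gbp3, differed by 0.31 ± 0.12 (0.113), and its dimmer probe set, singled out after its values were seen, rose from 4.11 to 4.67 (0.56 ± 0.10, limma adjusted p over all probe sets 0.00893).

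None of the 6 antigen presentation genes passed, although all 6 differences were positive and their median was 0.38. B2m, the light chain of every class I molecule and the brightest of them, read 9.09, 9.38, 9.32 and 9.47 in the wild-type mice and 9.78, 9.97, 9.32 and 10.08 in the R6/2 mice. Mice 64, 65 and 78 lay above all wild-type mice, while mouse 70 lay among them. The difference was 0.47 ± 0.15 (SE; limma adjusted p = 0.0636), and 0.51 on the other B2m probe set (0.0746). Without mouse 70, B2m passed (0.0102). Tapbp, which edits the bound peptide, differed by 0.29 ± 0.10 with no overlap (0.0795). The peptide transporter chains Tap1 (0.076 ± 0.092, 0.631) and Tap2 (0.18 ± 0.11, 0.325) differed less.

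In the heavy chain genes H2-K1 and H2-D1, 1 mouse of each group stood apart. H2-K1 read 5.47 in wild-type mouse 42 and 7.68, 7.70 and 7.25 in the other wild-type mice, and 5.72 in R6/2 mouse 70 and 7.97, 8.23 and 8.48 in the other R6/2 mice. H2-D1 read 6.46 in mouse 42 against 8.09, 8.09 and 7.89, and 6.25 in mouse 70 against 8.74, 8.95 and 9.12. Mice 42 and 70 thus lay more than 1 log2 unit below every other mouse of either genotype in both genes. With all mice the differences were 0.57 ± 0.62 for H2-K1 (limma adjusted p = 0.591) and 0.63 ± 0.59 for H2-D1 (0.526). Single mice moved these values widely. Without mouse 42 the difference was 0.055 for H2-K1 and 0.24 for H2-D1, and without mouse 70 it was 1.20 (0.144) and 1.30 (0.0491). Without R6/2 mouse 65 it was 0.36 for H2-K1 and 0.40 for H2-D1, and without mouse 78 it was 0.28 and 0.35. Without mice 42 and 70, a choice made after the values were seen, H2-K1 had means of 7.54 and 8.23 (difference 0.68, 0.0407) and H2-D1 of 8.02 and 8.94 (difference 0.91, 0.00570). With 3 mice a group, 4.75% of all genes were called higher in that fit.

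The low values of mice 42 and 70 depended on the probe set. Of 4 probe sets for H2-K1, 2 had both mice lowest and 2 did not have them together at either end. Of 9 for H2-D1, 4 had both mice lowest, 2 had both highest and 3 had them at neither end together. On one of the opposite H2-D1 probe sets, mouse 42 read 5.77 and mouse 70 5.09, against 3.60 to 4.35 in the other mice. Class I genes are near-identical copies that differ between haplotypes, and C57BL/6 and CBA mice are known to carry different ones, so values of single H2 genes are uncertain here. The labels give no haplotype for these mice, and its part in these values was not tested. The plot of all H2-K1 and H2-D1 probe sets shows the low and the high sets.

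**Figure D4:**
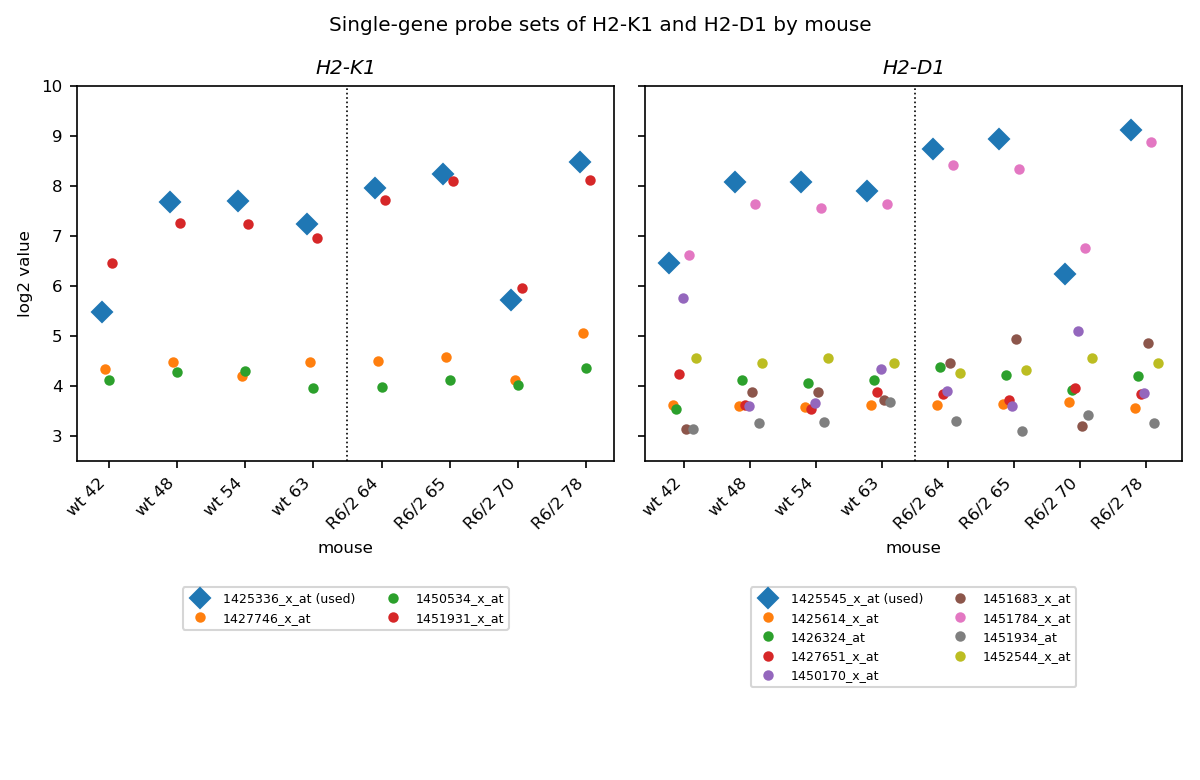
Log2 intensity of each single-gene probe set of H2-K1 (left) and H2-D1 (right) on the vertical axis, by mouse; colours are probe sets, diamonds mark the one used for the gene, and the dotted line parts the genotypes. Mice 42 and 70 are both lowest on 2 H2-K1 and 4 H2-D1 probe sets and both highest on 2 H2-D1 probe sets.

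Neither secreted product passed. Lgals3bp, a secreted glycoprotein that binds galectins, read 5.51, 5.77, 5.79 and 6.62 in the wild-type mice and 6.05, 7.04, 6.33 and 7.48 in the R6/2 mice. Wild-type mouse 63 lay above R6/2 mice 64 and 70. The difference was 0.80 ± 0.31 (SE; limma adjusted p = 0.110), and Lgals3bp passed without mouse 63 (0.0462). Cxcl10, a chemokine that attracts T cells, differed by -0.021 ± 0.071 (0.881).

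**Figure D5:**
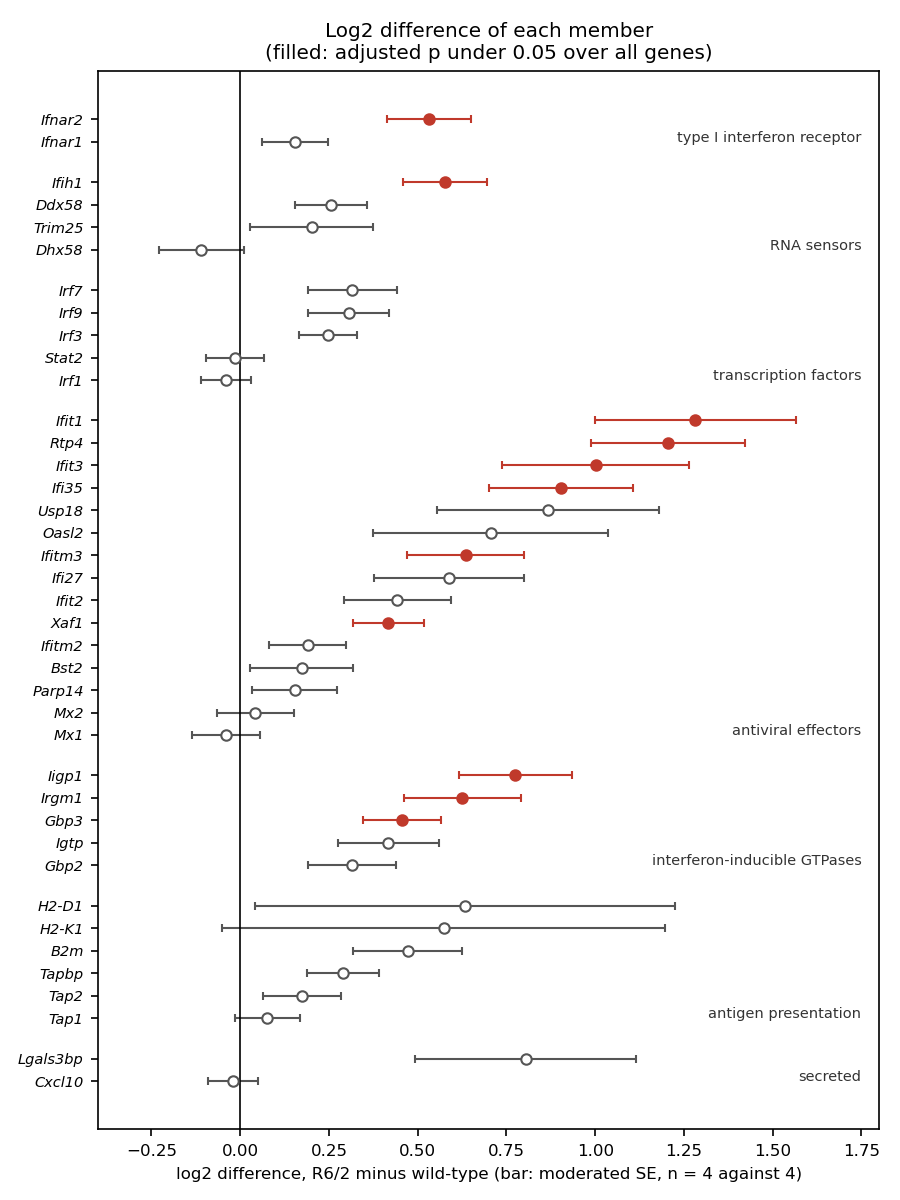
Log2 difference, R6/2 minus wild-type, of each of the 39 genes with its SE, grouped by role; the vertical line at 0 marks no difference and filled points passed the test. The differences run from -0.11 to 1.28, and none of the genes that passed is below 0.

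The R6/2 mice differed in how far they stood above the wild-type mice. Relative to the wild-type means, the median over the 39 genes was 0.57 in mouse 78, 0.36 in mouse 65, 0.31 in mouse 64 and 0.15 in mouse 70, and lay between -0.070 and 0.092 in the wild-type mice. Mouse 78 was the highest R6/2 mouse in 33 of the 39 genes, against 22.998% of all genes, and mouse 70 the lowest in 19 of the 39, against 19.2% of all genes. The SD was larger in R6/2 than in wild-type mice in 25 of the 39 genes (64.1%), against 42.3% of all genes. Genes on 1 array share its RNA and are not independent. Without mouse 78, 8 of the 39 genes rose, beside 6.19% of all genes, and without mouse 70, 13 rose, beside 5.08%.

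The other genes of the pathway, taken from a list of 109 written from knowledge of the pathway, were closer to the background. Of 93 measured, 9 rose and 0 fell, which is 9.68% and close to the 9.09% of all genes, and their median difference was 0.035. By role, 1 of 9 interferon, receptor and kinase genes rose, 5 of 42 other antiviral effectors, 3 of 15 other antigen presentation genes, and none of 9 sensors and adaptors, 9 transcription factors and inhibitors, 4 GTPases and 5 chemokines. In those last 4 groups, 2, 1, 2 and 0 genes had an unadjusted p under 0.05 in limma. Mavs, Myd88, Irgm2 and Gbp6 were higher, and Ciita was lower (-0.16). Over all genes, 17.3% were higher and 12.3% lower at that level. Of the 93 differences 59 were positive (63.4%), and the lowest was -0.39, for H2-DMa (limma adjusted p = 0.110).

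The 9 that rose did so by 0.30 to 0.80 on the log2 scale. Psme1, an activator subunit of the proteasome that shapes peptides for class I, rose most (means of 7.96 and 8.76, difference 0.80 ± 0.11 SE, limma adjusted p = 0.00120). Psmb10, an immunoproteasome subunit, rose by 0.58 ± 0.11 (0.00698), while the immunoproteasome subunits Psmb8 (0.059, 0.795) and Psmb9 (0.024, 0.918) did not pass. Pdia3, a chaperone of peptide loading, rose by 0.30 ± 0.074 (0.0225). Jak1, the kinase bound to interferon receptors, rose by 0.34 ± 0.071 (0.0102). The effectors Parp12 (0.70 ± 0.13, 0.00673), Parp9 (0.52 ± 0.14, 0.0292), Nmi, which pairs with Ifi35 (0.47 ± 0.12, 0.0300), Ifitm1 (0.32 ± 0.092, 0.0397) and Daxx (0.30 ± 0.088, 0.0429) completed the set. The classical interferon targets Rsad2 (0.25, 0.233) and Oas1a (-0.076, 0.701) did not pass. Interferon transcripts themselves were dim or at the level of absent signal and did not pass. Ifnb1 had dim means of 4.26 and 4.03 (limma adjusted p = 0.230), and Ifna2 of 3.80 and 3.97 (0.309). Ifna4, with means of 3.52 and 3.32 (0.146), and Ifng, with 3.11 and 3.06 (0.669), were at the level of absent signal. These values cannot show whether interferon transcripts changed.

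No marker of microglia, blood leukocytes, endothelium, meninges, astrocytes or oligodendrocytes was called higher. Of 14 measured microglial markers 0 were called by limma. At an unadjusted p under 0.05, Ctss was higher (0.40) and Fcrls (-1.08) and Cx3cr1 (-0.25) were lower. Their mean level was 7.46 to 7.75 in the wild-type mice against 7.31 to 7.63 in the R6/2 mice. Of 13 markers of blood leukocytes, 1 was called, Cd4, which fell from 8.68 to 7.34. The cell source of the Cd4 signal was not tested. Another 12 did not pass, among them Cd3d (means of 4.31 and 4.33), Cd3e (5.39 and 5.52) and Cd8a (5.03 and 5.02). The mean level, with Cd4 included, ran from 4.40 to 4.49 and from 4.29 to 4.39, and 5 of the 13 differences were positive. The T cell marker Cd3g, the B cell marker Ms4a1 and Nkg7 were at the level of absent signal. Cd8b1, S100a8, Cd79b, S100a9 and Gzma were close to it, with group means from 3.67 to 4.06. Such dim values limit what this list can show. Endothelial markers were lower, with 4 of 10 called and a mean level of 6.68 to 6.88 against 6.39 to 6.59. Of 7 markers of meninges and fibroblasts 0 were called (5.31 to 5.91 against 5.42 to 5.90), and Dcn (0.38) and Col1a2 (0.35) were higher at an unadjusted p under 0.05. Astrocyte markers were lower, with 3 of 7 called, 6 of 7 without overlap and a mean level of 9.88 to 10.24 against 9.70 to 9.79. Over all 18193 genes, 6.19% were called lower, and 1395 had every R6/2 mouse below every wild-type mouse. Of 5 oligodendrocyte markers 1 was called lower (10.39 to 10.83 against 10.26 to 10.54). The part of these cell types in the result was not tested.

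Markers of tissue next to the striatum varied between single mice. The mean of 7 choroid plexus markers was 7.43, 7.97, 6.20 and 9.10 in the wild-type mice and 6.20, 9.57, 9.04 and 8.84 in the R6/2 mice, all 7 differences were positive, and limma gave 0 of them at either an adjusted or an unadjusted p under 0.05. With that mean as a covariate, an alternative added after the data were seen, 10 of the 39 genes rose, beside 8.92% of all genes. The mean of 6 cortical neuron markers was 7.48, 6.90, 5.96 and 7.03 in the wild-type mice and 6.87, 5.57, 6.16 and 5.75 in the R6/2 mice, and 2 of the 6 fell. With the cortical mean as a covariate, also added later, 4 of the 39 genes rose, namely Ifih1, Ifit2, Ifnar2 and Rtp4, beside 5.84% of all genes. The cortical markers themselves differed with genotype, 2 of the 6 being called lower, so that fit does not separate cortical tissue from genotype. The part of cortical tissue in the result was not tested.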

How the data were processed

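The deposited log2 intensities of 45101 probe sets on 8 Affymetrix arrays were made by the authors with the tools RMA and affy, as the submitters' processing notes list them; versions and which arrays were normalized together are not given in the sources used here. After 64 control probe sets were left out, 34945 had 1 gene symbol in the platform annotation, 932 had several and 9160 had none and are unnamed here. Each gene was read from the brightest of its single-gene probe sets, by the mean of the 8 arrays. Through Entrez IDs, all 39 measured members matched RefSeq (GRCm38.p6). The genotypes were compared by limma 3.58.1 (lmFit, then eBayes; R 4.3.3) over 18193 genes with Benjamini-Hochberg adjustment, and called genes are those with an adjusted p under 0.05. Differences are R6/2 minus wild-type on the log2 scale, errors are moderated SEs, and a fold is 2 raised to the difference. RMA compresses differences of dim probe sets.

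The members and the lists were chosen with earlier results of these data known. Every measured member is named. Values by mouse are given for called members, for the brightest member of a role without a call, and for other members where single mice decide the value, the last chosen after their values were seen. Of the other pathway genes, those called are named, and further ones were named after their values were seen. The number of arrays limits the precision. In simulated data (5 runs of 18193 genes, 200 changed), recovery was 73.4% for genes changed by 0.5 and 98.2% for those changed by 1. Genes left unchanged made up 4.72% of the calls there. These rates cannot be carried over to the members, whose values spread more between mice. The median SD of the members was 0.21 in wild-type and 0.23 in R6/2 mice, against 0.13 and 0.12 over all genes. Alternatives were quantile normalization, centring, leaving out the dimmest 40% of genes, the mean of all probe sets, leaving out probe sets whose identifiers mark shared sequence, trend with robust moderation, no moderation, array weights and leaving out each mouse. Leaving out mice 42 and 70 together and the covariates for choroid plexus and cortical markers were added after the data were seen. Plots were made in Python 3.11.15 (matplotlib 3.10.9).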

Additional observations from a re-analysis of the deposited data

Results flagged for a closer look

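Among the 78 groups of 4 mice examined (39 genes in 2 genotypes), 11 held 1 mouse far from the other 3 by Dixon's test. The cut-off used flags about 1 group of 20 when values are independent and normal. Genes on 1 array share its RNA, so the count of 11 does not test for an excess over that rate. In the flagged groups of Cxcl10 and Mx1 the other 3 mice held equal or nearly equal values, so small differences were flagged. H2-D1 was low in wild-type mouse 42, at 6.46 against 7.89 to 8.09, and in R6/2 mouse 70, at 6.25 against 8.74 to 9.12. Wild-type mouse 63 was apart in 4 genes: it was low for Ifnar1 (6.98 against 7.25 to 7.27) and high for Dhx58 (4.26 against 3.72 to 3.78), Ifi27 (8.87 against 8.12 to 8.20) and Cxcl10 (4.19 against 4.08 in the others). R6/2 mouse 78 was high for Trim25 (7.50 against 6.97 to 7.04), Irf1 (7.14 against 7.01 to 7.03) and Tap2 (5.49 against 5.17 to 5.19). R6/2 mouse 65 was high for Ifitm2 (6.30 against 5.84 to 5.89). Wild-type mouse 42 was high for Mx1 (3.45 against 3.17 in the others), a gene at the level of absent signal. None of the 11 genes called higher was among these. A mouse far from the others widens the SD that limma uses, which makes a call less likely. The lack of overlap therefore does not show that the calls are free of single mice, and 5 of the 11 lost their call when some single mouse was left out.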

How the results depend on the processing

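The labels name no batch and no pairing of mice across the genotypes, so no paired analysis was run. Of 39 members, 11 were called higher, and the count was 11 with quantile normalization, with centring, without probe sets that may share sequence (38 members left) and without mice 42 and 70, 10 with the mean of all probe sets, with trend and robust moderation and with the choroid plexus covariate, and 16 with array weights (12.6% of all genes, against 9.09%). Without mice 42 and 70, 8 of the 11 were still called; Ifnar2 (adjusted p 0.0770), Ifitm3 (0.0922) and Xaf1 (0.0790) were not, and B2m, H2-K1 and H2-D1 were. Leaving out the dimmest 40% of genes kept 23 members, of which 10 were called, beside 16.9% of all genes. The count fell to 4 with the cortical covariate, beside 5.84% of all genes called higher. Without moderation it fell to 0, although 4.50% of all genes were still called higher. In that fit 14 members had an unadjusted p under 0.05, and the smallest adjusted p was 0.0558 (Rtp4). Leaving out each mouse gave 6 to 14, with 6 without wild-type mouse 48 (5.06% of all genes) and 14 without wild-type mouse 63 (7.49%). Ifnar2, Ifih1, Ifit1, Rtp4, Ifi35 and Iigp1 were called in all 8 of those fits. No member was called lower in any setting run. The median difference over the members was 0.28 to 0.44 with each mouse left out.

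Over all genes, 2781 were called, 1399 without moderation, 1721 with the cortical covariate, 1524 without mice 42 and 70, and 1679 to 2545 with each mouse left out. Of the other pathway genes, 9 were called higher, 4 without moderation and 4 to 8 with each mouse left out; 0 were called lower, 1 with array weights and 0 to 1 with each mouse left out.

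The difference of 7 members changed sign under some setting; none of them was called. With each mouse left out the ranges were -0.16 to 0.015 for Dhx58, -0.081 to 0.022 for Stat2, -0.084 to 0.029 for Mx1, -0.059 to 0.11 for Mx2 and -0.044 to 0.011 for Cxcl10. Quantile normalization gave 0.013 for Stat2 and 0.017 for Cxcl10, array weights 0.025 for Mx1 and 0.0089 for Cxcl10, the mean of probe sets -0.036 for Tap1, and the cortical covariate 0.038 for Mx1 and -0.10 for H2-K1. Without mice 42 and 70 Cxcl10 stood at -0.049. The causes were not tested. Dim probe sets limit Ifit1, Usp18, Oasl2, Mx1 and the interferon transcripts.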

Other observations

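H2-T24, a class I gene outside the list and named after its values were seen, was also lowest in wild-type mouse 42 (4.39) and R6/2 mouse 70 (4.15), against 5.14 to 5.73 in the other mice.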
